A study of Homo sapiens with 6 samples.

Results

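Colony-stimulating factors and IL6-type cytokines were examined as a group of 8 genes, CSF1, CSF2, CSF3, IL6, IL11, LIF, CLCF1 and IL24, among 38637 genes in the deposited table. The 8 genes were chosen by name, with their values in these same samples known, so their differences between the groups are a description and carry no test. RNA was sequenced from OVCAR8 cells, an established human ovarian cancer line labelled wild type, after 72 h with the solvent DMSO or with 2 nM pladienolide B, with 3 samples in each group. Pladienolide B binds the SF3b part of the spliceosome, which holds SF3B1 and recognises the branch point of introns. All samples came from 1 line, and nothing in the sources used here says whether the samples of a group were separate cultures, so p-values measure only the spread between these samples.

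Colony-stimulating factors are secreted proteins that drive the survival, division and maturation of myeloid blood cells. CSF1 acts on macrophages, CSF2 (also called GM-CSF) on granulocytes and macrophages, and CSF3 (G-CSF) on neutrophils. IL6, IL11, LIF and CLCF1 belong to the family of cytokines that signal through the shared receptor IL6ST (gp130), the JAK kinases and STAT3, and IL24 is a cytokine of the IL10 family that also activates STAT3. Many transcripts of this kind are short-lived, because AU-rich elements in the 3′ UTR are bound by proteins such as ZFP36 that promote their decay.

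Of the 8 genes, 4 were higher in every pladienolide B sample than in any DMSO sample (CSF1, CSF2, CSF3 and IL11), LIF was lower in every one, and the groups overlapped for IL6, CLCF1 and IL24. As background, the groups did not overlap for 55.3% of the 16178 genes that passed a filter on low values, and nothing is read from the cytokine genes' count beside it, since they were chosen with this contrast known. All 3 colony-stimulating factors were in the higher set, whereas the 4 cytokines that use IL6ST went different ways. That filter was passed by 7 of the 8 genes, and IL24 did not pass. CSF2 and CSF3 passed it through their pladienolide B samples alone, so a higher value there was a condition of passing.

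The transcripts of the 8 genes differ in the AU-rich sequence of their 3′ UTR. The pentamer ATTTA, searched on the sense strand with overlaps allowed, is the core of an AU-rich element, and the nonamer TTATTTATT contains it. In GENCODE's canonical transcripts on GRCh38, CSF2 has 8 pentamers in a 3′ UTR of 318 bases, or 25.2 per kilobase, a density at the percentile 99.98 of the 18481 protein-coding transcripts with a 3′ UTR of at least 100 bases. IL6 has 14.1 per kilobase, CSF3 8.20 and IL11 5.54, at percentiles 99.64, 97.93 and 92.64. CLCF1 has 4.13, IL24 2.78, LIF 2.19 and CSF1 1.86, and the median of all these transcripts is 1.64 per kilobase. A nonamer is present in CSF2 (3), IL11 (6), LIF (2) and CLCF1 (2) and in 8.92% of all the transcripts. To show this contrast, the 30-base stretch of exonic 3′ UTR with the most pentamers is printed for the 4 genes of highest density and for CSF1, which has the lowest, on the sense strand with pentamers in capitals. They lie at chr5:132076077-132076106 (+ strand), chr7:22731705-22731734 (+), chr17:40016979-40017008 (+), chr19:55365942-55365971 (-) and chr1:109930918-109930947 (+).
CSF2: aaatATTTATTTATTTATTTATTTAagttc
IL6: atttttaATTTAttaatATTTAaatatgtg
CSF3: atgtATTTAtctctATTTAatATTTAtgtc
IL11: cagatcttATTTATTTATTTAtttcagtac
CSF1: aaagtcATTTAaatatctATTTAaaagata

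**Figure D1:**
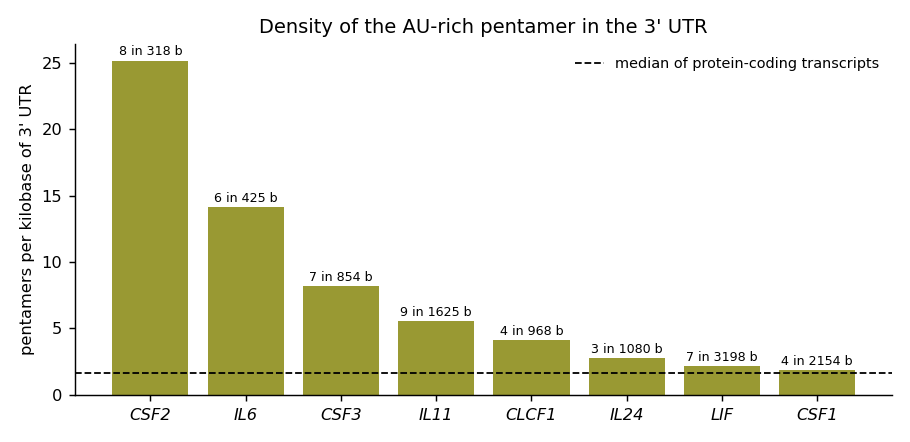
AU-rich pentamers per kilobase of 3′ UTR (bars, from 0) in the canonical transcript of each of the 8 genes, with the number of pentamers and the bases (b) of 3′ UTR above each bar; the dashed line is the median of 18481 protein-coding transcripts, 1.64. CSF2 stands at 25.2 and CSF1 at 1.86.

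All 8 canonical transcripts are spliced. LIF and CLCF1 have 2 introns, CSF2 has 3, CSF3, IL6 and IL11 have 4, IL24 has 6 and CSF1 has 8, against a median of 7 over the same 18481 transcripts. The deposited values are per gene, so splicing of these transcripts was not analysed here.

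Sequence before the start of transcription was taken from RefSeq (GRCh38.p14), which matched 4 of the 8 genes, CSF2, IL6, IL11 and IL24. The 250 bases before each start were searched on both strands for the TATA box (TATAAA), the kappa-B consensus bound by NF-kB, AP-1 (TGANTCA), STAT (TTCNNNGAA), C/EBP (TTGCNNAA) and the core of the CK-1 element of colony-stimulating factor genes (GAGATTCC). Of 35116 RefSeq promoters of this length 10.7% hold the first, 9.96% kappa-B, 6.57% AP-1, 6.57% STAT, 9.05% C/EBP and 0.735% the CK-1 core. Positions are counted in bases from the start, with a minus sign before it. CSF2 has a STAT match from -190 to -182 and a CK-1 core from -101 to -94. IL6 has a C/EBP match from -155 to -148 and a kappa-B match from -73 to -64, and IL11 an AP-1 match from -96 to -90. IL24 has none of these, no TATAAA was found in the 4 sequences, and no match overlaps another. The 3 sequences with a match are printed 5′ to 3′ on the strand of the gene, with the matches in capitals, to show where in each promoter these letters lie. They lie at chr5:132073539-132073788 (+ strand), chr7:22726950-22727199 (+) and chr19:55370464-55370713 (-). The span of IL6 in the deposited table begins further upstream, so this stretch is inside it.
CSF2: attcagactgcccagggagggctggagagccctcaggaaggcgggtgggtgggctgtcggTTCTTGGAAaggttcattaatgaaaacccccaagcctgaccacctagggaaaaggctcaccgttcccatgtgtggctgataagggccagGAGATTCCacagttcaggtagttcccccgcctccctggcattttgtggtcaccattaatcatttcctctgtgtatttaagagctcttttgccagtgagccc
IL6: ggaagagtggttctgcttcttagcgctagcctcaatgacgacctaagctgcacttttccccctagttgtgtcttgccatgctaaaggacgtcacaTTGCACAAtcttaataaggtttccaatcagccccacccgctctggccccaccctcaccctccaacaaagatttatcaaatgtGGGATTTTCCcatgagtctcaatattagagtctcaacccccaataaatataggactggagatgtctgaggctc
IL11: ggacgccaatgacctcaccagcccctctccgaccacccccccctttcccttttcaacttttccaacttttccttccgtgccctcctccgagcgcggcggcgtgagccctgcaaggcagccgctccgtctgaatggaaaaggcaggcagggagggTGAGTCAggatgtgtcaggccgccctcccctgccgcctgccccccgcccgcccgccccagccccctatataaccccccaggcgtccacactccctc
A match is a run of letters and was not shown to be bound in these cells.

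**Figure D2:**
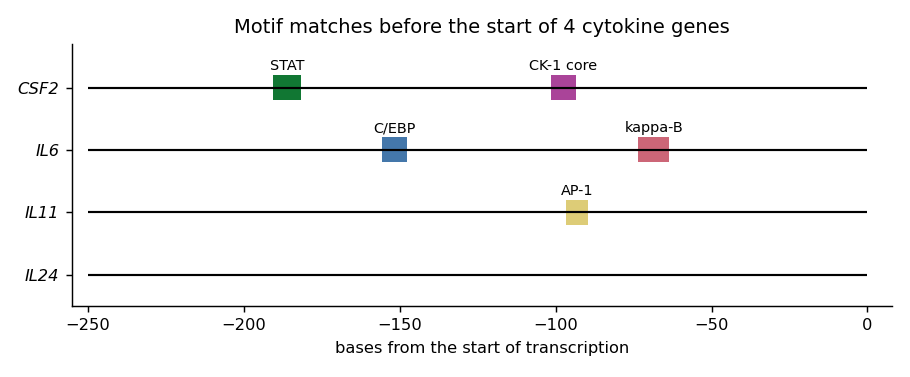
Positions of motif matches (coloured boxes) in the 250 bases before the start of transcription of CSF2, IL6, IL11 and IL24; the horizontal axis is the distance from the start in bases. CSF2 and IL6 have 2 matches each, IL11 has 1 and IL24 has none.

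Values are given as adjusted reads, the deposited values, which are reads scaled to a common library size. CSF1, the macrophage growth factor on chromosome 1 of GRCh38 (+ strand, 109910506 to 109930992), had 363, 311 and 344 adjusted reads in DMSO replicates 1 to 3 and 717, 758 and 603 in pladienolide B replicates 1 to 3. The mean was 339 ± 26.5 in DMSO and 693 ± 80.2 in pladienolide B (SD, n = 3 per group), a ratio of 2.04. The log2 difference, taken on log2(adjusted reads + 1), was 1.02 with a standard error (SE) of 0.09, and it lay between 0.96 and 1.12 when any 1 sample was left out. The lowest pladienolide B sample was far above the highest DMSO sample. Since whole cultures were sequenced, more RNA in each cell and a larger share of cells with the RNA cannot be told apart.

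CSF2, on chromosome 5 (+ strand, 132073789 to 132076170), was counted in single digits in DMSO, with 9, 5 and 1 recovered reads (the whole reads obtained by undoing the scaling), and had 22, 19 and 17 in pladienolide B. In adjusted reads the means were 4.83 ± 3.87 and 20.1 ± 2.92 (SD, n = 3 per group), with a log2 difference of 2.14 (SE 0.53). Summed over each group the reads were 15 and 58, and allowing for depth the ratio was 4.16, with an exact 95% interval of 2.33 to 7.90 that covers counting error only. The log2 difference lay between 1.46 and 2.64 when 1 sample was left out.

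CSF3, on chromosome 17 (+ strand, 40015440 to 40017813), had 6, 0 and 0 recovered reads in DMSO and 17, 35 and 15 in pladienolide B. Its reads in DMSO came from replicate 1 alone, while each pladienolide B sample had some. The mean was 1.93 ± 3.33 adjusted reads in DMSO and 23.3 ± 11.9 in pladienolide B (SD, n = 3 per group). The ratio of summed reads was 12.0, with an exact 95% interval of 5.24 to 33.9 for counting error only, the widest interval of the 8 genes. The log2 difference was 3.57 (SE 0.69) with a pseudocount of 1, 5.78 with a pseudocount of 0.1, and between 3.11 and 4.49 with 1 sample left out. The size of this difference was therefore not well fixed at this depth.

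IL11, a gp130 cytokine on chromosome 19 (- strand, 55364382 to 55370463), had 96.3, 69.6 and 91.8 adjusted reads in DMSO and 112, 108 and 119 in pladienolide B. The pladienolide B samples lay close together, and the gap to the highest DMSO sample was smaller than the range of the DMSO samples. The means were 85.9 ± 14.3 and 113 ± 5.78 (SD, n = 3 per group), with a log2 difference of 0.40 (SE 0.16) that lay between 0.26 and 0.49 with 1 sample left out.

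IL6 itself, on chromosome 7 (+ strand, 22725889 to 22732002), was abundant in both groups and did not separate them. It had 1524, 1327 and 1724 adjusted reads in DMSO and 1550, 1521 and 958 in pladienolide B. Pladienolide B replicate 3 alone was below the DMSO range, and the coefficient of variation was 24.8% in that group against 13.0% in DMSO. The log2 difference was -0.21 (SE 0.13), and it was 0.02 without pladienolide B replicate 3, so its sign rested on that sample.

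LIF, a gp130 cytokine that keeps mouse embryonic stem cells undifferentiated, lies on chromosome 22 (- strand, 30240453 to 30257487). It had 671, 558 and 643 adjusted reads in DMSO and 526, 539 and 516 in pladienolide B. The means were 624 ± 59.0 and 527 ± 11.4 (SD, n = 3 per group), a log2 difference of -0.24 (SE 0.08). The nearest samples of the groups were DMSO replicate 2 and pladienolide B replicate 2. They changed order when reads were divided by the plain library total, as RPM, with a DMSO range of 22.1 to 27.2 and a pladienolide B range of 21.4 to 22.3. The separation of LIF thus depended on how the libraries were scaled, and that of CSF1, CSF2, CSF3 and IL11 was present under both scalings.

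CLCF1, a gp130 cytokine that signals through the CNTF receptor, lies on chromosome 11 (- strand, 67364168 to 67374177). It had 489, 423 and 502 adjusted reads in DMSO and 498, 467 and 387 in pladienolide B. Its log2 difference was -0.07 (SE 0.10), and it was 0.04 without pladienolide B replicate 3.
IL24, on chromosome 1 (+ strand, 206897404 to 206904139), was near the floor of detection, with 4, 6 and 5 recovered reads in DMSO and 10, 3 and 11 in pladienolide B. The ratio of summed reads was 1.72, with an exact 95% interval of 0.866 to 3.53 for counting error only. Pladienolide B replicate 2 was below all DMSO samples and the other pladienolide B samples were above them. FCMR overlaps the end of IL24 on the opposite strand and had 18 to 34 reads per sample, and whether reads were assigned by strand is not stated.

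Beside the stretches printed above, the log2 difference was 2.14 for CSF2 with 25.2 pentamers per kilobase and -0.21 for IL6 with 14.1. It was 3.57 for CSF3 with 8.20, 0.40 for IL11 with 5.54 and 1.02 for CSF1 with 1.86. For the genes without a printed stretch it was -0.07 for CLCF1 with 4.13, 0.55 for IL24 with 2.78 and -0.24 for LIF with 2.19. A relation between pentamers and these differences was not tested.

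**Figure D3:**
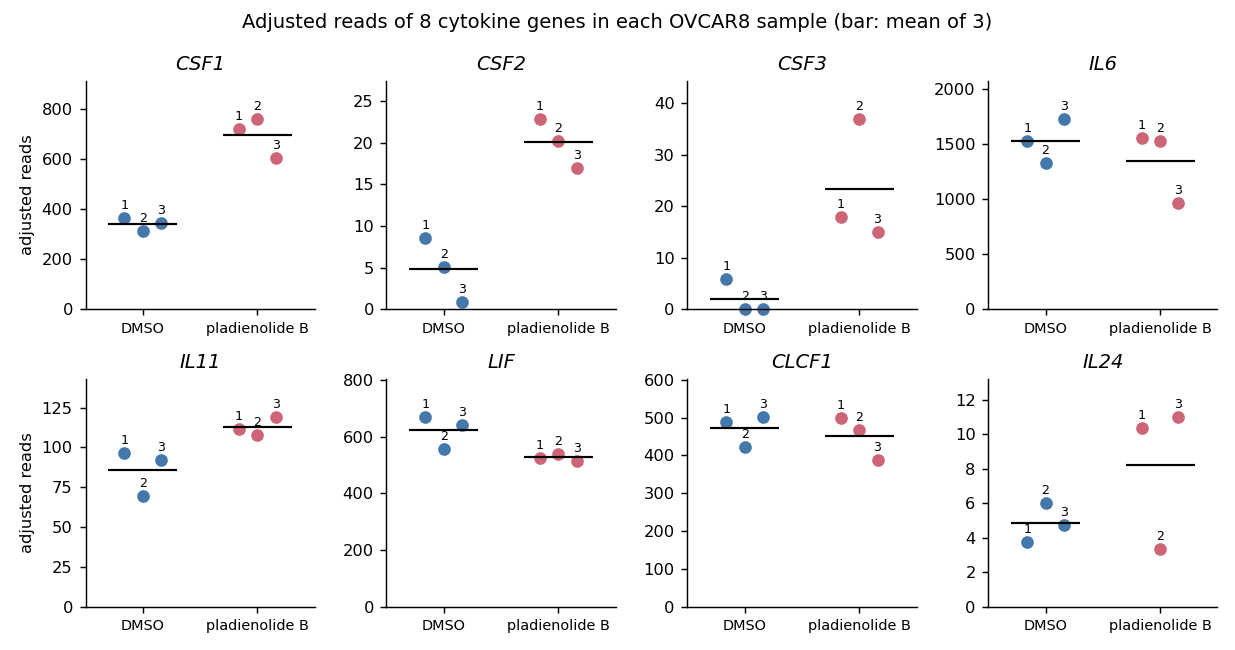
Adjusted reads (vertical axis, from 0, a scale of its own for each gene) of the 8 cytokine genes in the 3 DMSO and 3 pladienolide B samples; points are samples, numbers their replicate numbers and bars the group means. CSF1 stands between 311 and 363 in DMSO and between 603 and 758 in pladienolide B, while IL6 spans 958 to 1550 in pladienolide B across a DMSO range of 1327 to 1724.

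**Figure D4:**
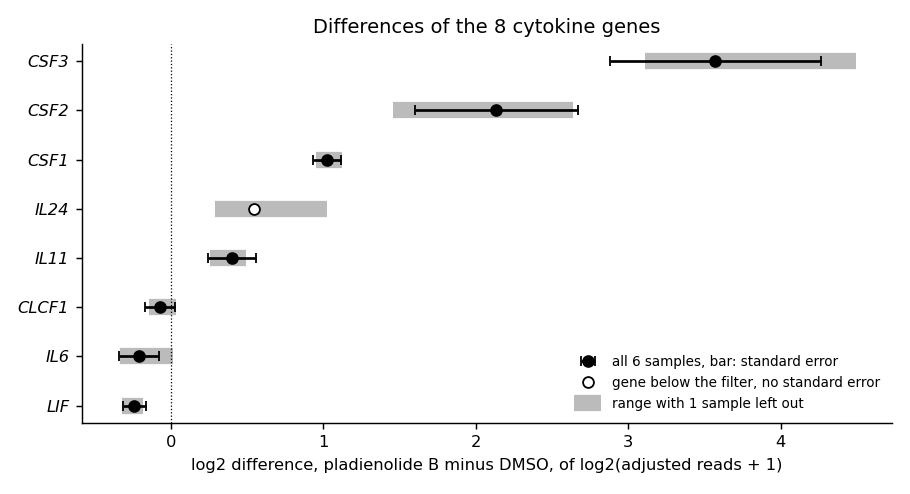
Log2 difference of pladienolide B minus DMSO (horizontal axis) for each of the 8 genes, with its standard error (black bars) and the range when 1 sample is left out (grey). CSF3, CSF2 and CSF1 lie at 3.57, 2.14 and 1.02, and the grey ranges of IL6 and CLCF1 cross 0.

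Across the 8 genes the samples of a group did not move as one. Pladienolide B replicate 3 was the lowest of its group for 6 genes and the highest for the other 2, IL11 and IL24. DMSO replicate 2 was the lowest of its group for 5 genes. Over all genes, DMSO replicate 2 differed from the other DMSO samples by a chi-square per degree of freedom of 7.82 and 7.74, against 2.01 between DMSO replicates 1 and 3 and 3.21 to 4.82 between pladienolide B samples, where counting error alone gives about 1. No sample duplicated another.

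To compare genes with each other, recovered reads were divided by the length of the canonical transcript and by the library total (RPKM, reads scaled to transcript length and library total). Reads were counted per gene, so these levels and their order assume that all reads came from that transcript. The spans of IL6 and LIF in the deposited table are wider than those of their canonical transcripts. IL6 led in DMSO at 54.6 ± 7.75 RPKM (SD, n = 3), followed by CLCF1 at 11.2, LIF at 6.50, CSF1 at 3.43 and IL11 at 1.46, and the ranges of these 5 genes did not overlap. Below them CSF2 at 0.247, IL24 at 0.0987 and CSF3 at 0.0509 had ranges that overlapped. In pladienolide B the mean levels were 49.3 RPKM for IL6 and 10.9 for CLCF1, and CSF1 with 7.17 came next, above LIF with 5.63. The ranges of CSF1 (6.27 to 7.87 RPKM) and LIF (5.54 to 5.77 RPKM) did not overlap in pladienolide B, and in DMSO LIF was the higher of the pair in every sample. CSF2 at 1.05 RPKM and CSF3 at 0.643 RPKM still overlapped each other, and both stayed below IL11 at 1.96 RPKM. In pladienolide B IL6 RNA was therefore far above that of the colony-stimulating factors, although those differed more between the groups.

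The libraries held between 25006154 and 26130882 reads on genes for DMSO and between 22621338 and 24036812 for pladienolide B, with a read for 22005 to 22987 genes. All 13 markers of ovarian cancer epithelium averaged 10 or more adjusted reads over the 6 samples, as did 5 of 10 fibroblast and 4 of 7 endothelial markers. The 13 ranged widely, from CLDN3, with means of 11.5 in DMSO and 20.7 in pladienolide B, to KRT8, with 41458 and 49896. KRT19, MUC16 and WT1 were also low, with DMSO means of 16.4, 18.0 and 20.6. So were WFDC2, CDH1 and CLDN4, with DMSO means of 20.5, 23.8 and 24.7. The summed leukocyte markers ranged from 1122 to 1277 adjusted reads for DMSO and from 1514 to 1618 for pladienolide B, nearly all of it CD68, a lysosomal protein. Of the 14, CD68 and CD14 averaged 10 or more, CD3E and TYROBP had 0 reads in every sample, and PTPRC (CD45), which defines leukocytes, had 3 reads in all. Fibroblast markers summed to 7020 to 7184 and 5937 to 6610, mostly COL1A1, and endothelial markers to 74.0 to 93.7 and 116 to 131. All samples came from an established cancer line, so leukocytes, fibroblasts and endothelial cells were not part of the design. Reads of their markers do not show that such cells were present, and a contribution from them to the cytokine values was not tested.

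The other genes of these pathways were described through 7 lists, from which the 8 cytokine genes were left out. Among the 16178 genes tested with limma, a Benjamini-Hochberg adjusted p below 0.05 was reached by 22.4% with higher and 25.2% with lower values in pladienolide B, 47.6% in all. Of the 127 tested genes on the lists, each counted once, 30 were higher and 35 lower, or 51.2%, a share near that of all genes. The median log2 fold change was 0.02 over these genes and -0.004 over all genes tested.

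Of 19 other ligands of the families, only 6 were tested, of which 1 was higher, 3 were lower and 2 did not pass (66.7% called, against 47.6% of all genes), with a median log2 fold change of -0.21. KITLG (stem cell factor), which like CSF1 binds a receptor tyrosine kinase, had 304, 372 and 309 adjusted reads in DMSO and 542, 579 and 507 in pladienolide B. It rose by a log2 fold change of 0.73 (SE 0.09, limma, adjusted p = 5.02e-06). CTF1, CNTF and EBI3, a subunit of IL27, fell by 0.57, 0.46 and 0.36 on the log2 scale (limma, adjusted p = 0.0449, 0.0387 and 0.0363). All 3 were near the threshold, and they lost the call under 9, 8 and 6 alternatives, the fits without DMSO replicate 1 and without pladienolide B replicate 1 among them for each. IL3, IL5, IL19, IL20, IL22 and IL26 had 0 reads in every sample. Taken by itself, a library with 0 reads allows an expected count of up to 3 at 95% confidence. TSLP, a cytokine of epithelial cells, had 4 reads over the DMSO samples (1, 3 and 0) and 24 over the pladienolide B samples (10, 1 and 13). Its groups overlapped, and it was not tested.

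Of 17 receptors 12 were tested, of which 3 were higher, 2 lower and 7 not called (41.7% called). IL6R, the chain that binds IL6, had 313, 310 and 315 adjusted reads in DMSO and 521, 594 and 549 in pladienolide B, with a log2 fold change of 0.82 (SE 0.08, limma, adjusted p = 2.64e-07). IL6ST, the signalling chain of the family, had a mean of 13163 adjusted reads in DMSO and 13463 in pladienolide B, with a log2 fold change of 0.03 (SE 0.05, limma, adjusted p = 0.631) that was -0.02 without pladienolide B replicate 2. LIFR, the chain for LIF, rose by 0.27 (limma, adjusted p = 0.000684), and IL11RA, the chain for IL11, fell by 0.47 on the log2 scale (limma, adjusted p = 0.0066). OSMR, the oncostatin M receptor, had 7347, 5955 and 7421 adjusted reads in DMSO and 3518, 3984 and 3760 in pladienolide B. It fell by 0.87 on the log2 scale (SE 0.07, limma, adjusted p = 2.48e-08). IL20RB, a chain of the receptors for IL24, rose by 1.24 (SE 0.28, limma, adjusted p = 0.00152) from a mean of 18.9 to 46.4 adjusted reads. The receptors of the colony-stimulating factors were hardly read, with 34 reads over the DMSO samples and 24 over the pladienolide B samples for CSF1R, 10 and 6 for CSF2RA, and 4 and 9 for CSF3R, and these 3 were not tested. CSF2RB, the shared chain, was tested and had a log2 fold change of 0.66 (limma, adjusted p = 0.171).

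All 17 transducers of JAK-STAT signalling were tested, with 3 higher, 3 lower and 11 not called (35.3% called). STAT3 had a log2 fold change of -0.01 (SE 0.05, limma, adjusted p = 0.875). STAT5B and the adaptor GRB2 rose by 0.25 and 0.10 (limma, adjusted p = 0.000815 and 0.049), and GRB2 lost the call under 7 alternatives, among them no filter and the fits without DMSO replicate 1 or 3 or pladienolide B replicate 1 or 2. JAK2, the kinase used by the CSF2 and CSF3 receptors, fell by 0.51 on the log2 scale (limma, adjusted p = 0.000178), and the kinase TYK2 and the adaptor IRS1 fell by 0.23 and 0.23 (limma, adjusted p = 0.000758 and 0.00796). IRS1 did not pass without pladienolide B replicate 1.
Of 17 tested inhibitors of this signalling 3 were higher, 1 was lower and 13 were not called (23.5% called). The adaptor SH2B3 rose by 0.60, and the phosphatases PTPN1 and PTPN2 by 0.44 and 0.16 (limma, adjusted p = 3.93e-07, 1.07e-07 and 0.0177). PTPN2 did not pass without DMSO replicate 1 or 3, without pladienolide B replicate 1 or without the variance trend. SOCS4 fell by 0.18 on the log2 scale (limma, adjusted p = 0.00528). SOCS3, the feedback inhibitor induced by IL6 through STAT3, had a log2 fold change of 0.07 (SE 0.08, limma, adjusted p = 0.512).

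Among 24 tested genes described as responding to STAT3, 5 were higher, 9 lower and 10 not called (58.3% called), with a median log2 fold change of 0.04. IL4R, CCND1 (cyclin D1) and ICAM1, an adhesion molecule, rose by 0.71, 0.54 and 0.33 (limma, adjusted p = 3.42e-07, 1.63e-07 and 0.00159), though ICAM1 did not pass without the variance trend. FOS, a subunit of AP-1, fell by 2.36 on the log2 scale (SE 0.17, limma, adjusted p = 7.06e-09), from a mean of 407 to 80.4 adjusted reads. VEGFA, the vascular growth factor, fell by 1.27 (limma, adjusted p = 3.88e-07), and OSMR, given above, is also on this list.

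Of 29 transcription factors known to act on cytokine genes 5 were higher, 11 lower and 13 not called (55.2% called), with a median log2 fold change of -0.10. FOSL1, another AP-1 subunit, had 5069, 5869 and 5392 adjusted reads in DMSO and 11567, 11026 and 11032 in pladienolide B. Its log2 fold change was 1.04 (SE 0.05, limma, adjusted p = 6.14e-11). It was the only one of the 7 JUN and FOS genes on the list that rose, while FOS, FOSB, FOSL2, JUN and JUNB fell and JUND was not called. FOSB fell by 0.75 on the log2 scale (limma, adjusted p = 0.00936), a call lost without DMSO replicate 3, without pladienolide B replicate 3 and without the variance trend. EGR1, an immediate early factor, fell by 1.93 on the log2 scale (limma, adjusted p = 5.58e-10), with 2002, 1607 and 2159 adjusted reads in DMSO and 421, 499.7 and 600.2 in pladienolide B. NFATC2 and CEBPA rose by 0.71 and 0.41 (limma, adjusted p = 0.00142 and 0.00653).

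Among 30 tested factors of mRNA decay and stability, 10 were higher, 10 lower and 10 not called (66.7% called), with a median log2 fold change of 0.03. ZFP36 (tristetraprolin), which binds AU-rich elements and promotes decay, had 136, 145 and 165 adjusted reads in DMSO and 245, 263 and 216 in pladienolide B. Its log2 fold change was 0.70 (SE 0.12, limma, adjusted p = 0.000129). ZC3H12C, a relative of the RNase regnase-1, and the m6A reader YTHDF2 rose by 0.46 and 0.43 (limma, adjusted p = 7.39e-05 and 4.18e-07). CNOT8 and CNOT6, deadenylases of the CCR4-NOT complex, and HNRNPD (AUF1), which binds AU-rich elements, fell by 0.50, 0.31 and 0.30 on the log2 scale (limma, adjusted p = 3.86e-07, 4.91e-05 and 1.4e-05). Factors with opposite effects on decay were on this list, so its counts give no direction for decay.

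**Figure D5:**
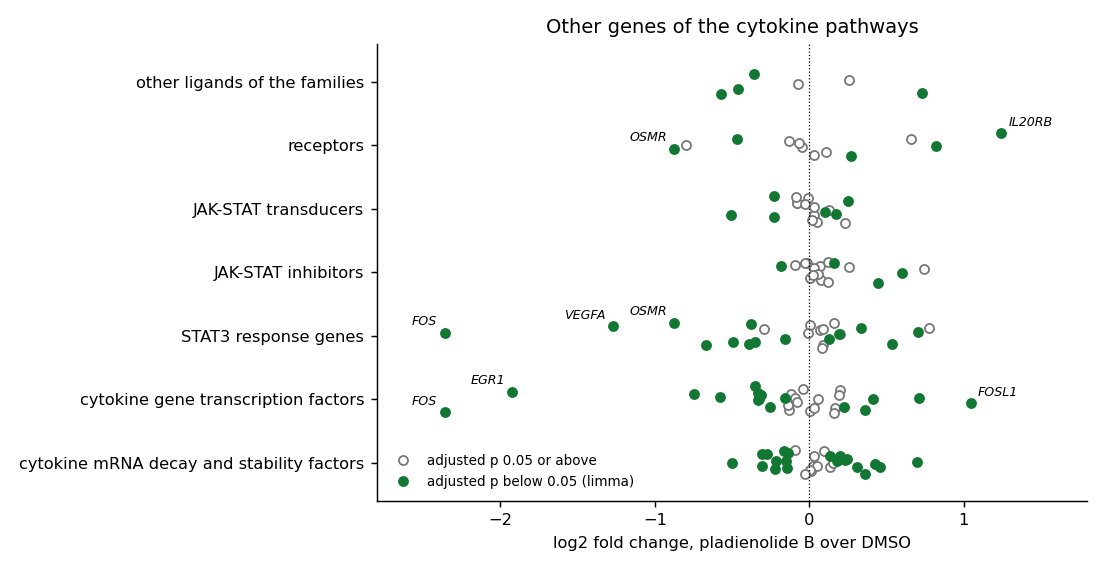
Log2 fold change (horizontal axis, positive where pladienolide B is higher) of the tested genes on the 7 lists (rows); each point is a gene, filled where the adjusted p from limma was below 0.05, the vertical spread is for legibility only, and the genes furthest from 0 carry a name. FOS at -2.36, EGR1 at -1.93 and VEGFA at -1.27 lie furthest to the left, and IL20RB at 1.24 and FOSL1 at 1.04 furthest to the right.

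Genes near the 8 cytokine genes were examined to see whether whole neighbourhoods moved. They were the nearest tested gene on either side of each, and any gene that overlaps it. Gaps to the nearest tested genes ran from 1290 bases (MED24, from CSF3) to 276771 bases (FNIP1, from CSF2). MAPKAPK2 lies 163120 bases from IL24, GSTM3 169467 from CSF1 and LOC100506178 151890 from IL6. Genes that were not tested can lie between, so these are not always adjacent genes. Of 21 such genes 19 were tested, of which 4 were higher and 4 lower, beside 47.6% called among all genes. The 8 calls became 5 when no filter was used, and 5 without pladienolide B replicate 1 or without replicate 3. Beside CSF1, GSTM3 rose by 0.14 and AHCYL1 fell by 0.81 on the log2 scale (limma, adjusted p = 0.0434 and 2.19e-10). Beside CSF2, FNIP1 rose by 0.43 and P4HA2-AS1 fell by 0.70 on the log2 scale (limma, adjusted p = 1.08e-05 and 0.0454). GSTM3 and P4HA2-AS1 lost their calls under 8 and 7 alternatives. The neighbours of CSF3 were not called, with log2 fold changes of -0.08 for PSMD3 (limma, adjusted p = 0.106) and -0.12 for MED24, which lies 1290 bases away (limma, adjusted p = 0.0784). Beside IL6 the lncRNA LOC100506178 fell by 1.38 on the log2 scale (limma, adjusted p = 3.68e-09) while TOMM7 was not called (log2 fold change -0.01, limma, adjusted p = 0.902). RPL28 beside IL11 fell by 0.13 on the log2 scale, and MAPKAPK2 and PIGR on either side of IL24 rose by 0.23 and 0.54 (limma, adjusted p = 0.0128, 0.00506 and 0.0236), of which PIGR lost the call under 5 alternatives and RPL28 under 2. The other 8 that were tested, COX6B2 beside IL11, MTMR3 and CASTOR1 beside LIF, POLD4 and RAD9A beside CLCF1 and the genes that overlap a cytokine gene, were not called. The latter were IL6-AS1 (log2 fold change 0.08, limma, adjusted p = 0.859), LOC100130987 over CLCF1 (0.07, limma, adjusted p = 0.881) and FCMR over IL24 (0.10, limma, adjusted p = 0.811). Reads of such overlapping genes may be shared where counting ignored strand, and LIF-AS1 and LIF-AS2, with 0 to 18 reads per sample against 505 or more for LIF, were not tested.

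The gene most like each cytokine gene over the 6 samples was found by Pearson's r of log2(adjusted reads + 1), as a description of these samples. It was MDC1 for CSF1 (r = 0.999), VPS33B for CSF2 (0.994), SSC4D for CSF3 (0.997), LOC107985320 for IL6 (0.993), ZNF408 for IL11 (0.997), KLF3 for LIF (0.997) and HTATSF1P2 for CLCF1 (0.997). The 6 points include both groups, and with 16178 genes some high value is always found. Between 1 and 62 genes had an r above 0.99 with a given cytokine gene, the most with CSF1.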

How the data were processed

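RNA enriched for polyA was sequenced from 6 OVCAR8 samples, 3 per group. Per the labels, HISAT2, HTSeq 0.12.4 and DESeq2 were used. The study's methods give hg38 and the labels hg19, and 99.974% of the 26990 symbols shared with GENCODE v44 had a position that overlaps on GRCh38. The strand setting of the counting is not given in the sources used here. The deposited value of a gene in a sample is a signal that the authors scaled to a common library size. It matches the quantile adjustment of counts in edgeR at a dispersion of 0.0027, and inverting this returned whole reads, within 0.001, for 100% of the 148143 values above 0. The log2 fold changes, p-values and q-values that the authors deposited from their own comparison were not used.

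The adjusted values were tested as log2(value + 1) with limma 3.58.1 with a trend of variance on expression, two-sided, after the filterByExpr function of edgeR 4.0.16 (minimum 10, total 15), which left 16178 of 38637 genes. The pseudocount shrinks differences of genes with low counts. Alternatives were no filter, 10 or more in every sample, a pseudocount of 0.1, a replicate block, leaving out each sample, limma without the trend, and edgeR's quasi-likelihood test with TMM and DESeq2 1.42.0 on the recovered reads. Read ratios, levels per kilobase and RPM without TMM were added after the values were seen. Scripts were tested on simulated data. The cytokine genes and the lists were chosen with earlier results of these data known. From each list up to 3 rises and 3 falls were named, those with the largest fold change among called genes whose groups did not overlap, along with IL6ST, IL6R, LIFR, OSMR, STAT3 and SOCS3, the nearest tested gene on either side of each cytokine gene, any that overlap it, and the gene most like it. Others, such as TSLP, the receptors of the colony-stimulating factors and marker genes, were named after their values were seen.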

Additional observations from a re-analysis of the deposited data

How the results depend on the processing

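The number of cytokine genes whose groups did not overlap was 5 with all samples. Leaving out 1 sample cannot lower this number, and it was 5 or, without pladienolide B replicate 2, 6, with IL24 added. With RPM, reads over the library total, it was 4, where LIF overlapped. Of 96 differences of the cytokine genes under alternatives, 95 moved by less than the replicate spread and 1, CSF3 with a pseudocount of 0.1, moved to 5.78. The filter, the replicate block and the trend do not enter these differences, so their values under those alternatives were the same by construction. Fits with 1 sample left out share all other samples with the main one, so the 95 are no measure of stability. Over all genes 7695 were called, and 6381 (limma without the trend) to 7836 (without DMSO replicate 2) under the alternatives. edgeR called 7738 and DESeq2 6985. On the lists 65 genes were called, and 49 without the trend. Of the neighbours 8 were called, 5 without a filter, and 5 to 7 with 1 sample left out, the fewest without pladienolide B replicate 1 or 3. Without a filter more genes enter both the variance trend and the adjustment, and their parts in the lost calls were not tested. Deviations of same-numbered samples had correlations of -0.018, -0.018 and 0.003, and those of differently numbered samples lay between -0.035 and 0.0485. No pairing by number was seen in these values. Whether same-numbered samples were handled together is not stated, and small correlations cannot exclude it. With the number as a block 7349 genes, 59 list genes and 6 neighbours were called. Of 727 values of 56 named genes under alternatives, 653 kept their direction and side of the threshold, 61 no longer passed it, 1 newly passed it (RAD9A without pladienolide B replicate 2) and 12 changed sign. Most lost calls were of CTF1, CNTF, EBI3, GSTM3, GRB2, P4HA2-AS1, PIGR and PTPN2. The changes of sign were all of genes that were not called. STAT3 was 0.0003 with DESeq2 and -0.0305 to 0.0211 with 1 sample left out, and in the same fits IL6ST was -0.0247 to 0.0782, IL6-AS1 -0.084 to 0.26, TOMM7 -0.092 to 0.0678, MTMR3 -0.0118 to 0.117, LOC100130987 -0.24 to 0.25 and FCMR -0.12 to 0.29. IL6 and CLCF1, which were not tested, turned to 0.02 and 0.04 without pladienolide B replicate 3. Depth limits CSF2, CSF3 and IL24 most, with 15, 6 and 15 reads over the DMSO samples.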
